A study of Mus musculus with 50 samples.

Results

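The control population bleo/Neo was compared with the parental YAMC cells it came from, over all genes of the array annotation. YAMC cells are a polyclonal young adult mouse colon epithelial line. The members are the 10 arrays titled bleo/Neo and the 10 titled YAMC, chosen by their titles alone, 20 of the 50 arrays in the series. The other 30 arrays belong to the mp53, Ras and mp53/Ras populations, which carry a mutant p53, activated Ras or both. They enter here as further populations of the same origin and through the shared estimate of spread.

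The YAMC cells came from the Immorto-mouse (H-2Kb/tsA58), so cells of all groups carry a temperature-sensitive viral large T antigen behind an interferon gamma-inducible promoter. They were expanded at 33 °C in 10% serum with 5 U/ml interferon gamma on dishes coated with collagen IV. For the arrays the 5 populations were moved to 39 °C, interferon gamma was withdrawn for 48 h, and serum was then lowered to 0% for another 24 h, after which the cells were still cycling. Low-passage YAMC cells had been infected with retroviruses to make bleo/Neo, a polyclonal control that received neither oncogene; the parental YAMC cells are its uninfected comparison. The bleo/Neo population was made once. Infection, time in culture and the cells that founded the population therefore cannot be told apart in this comparison. The labels count 10 replicates per population and do not say that they were separate cultures, so p-values measure only how far these samples vary, which may be technical.

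The RNA was polysomal, that is, mRNA bound to several ribosomes and collected from a sucrose gradient. Levels are log2 intensities and depend on transcript abundance and ribosome loading together. Differences are bleo/Neo minus YAMC in log2 units; the figure after ± is the standard error from limma, with n = 10 arrays in each population. A gene was called changed, "rose" or "fell" at a Benjamini-Hochberg adjusted p under 0.05 in limma over 12883 tested genes. Arrays give no read depth, and their number limits the precision. The median standard error was 0.09.

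As background, epithelial cells make keratins, claudins and desmosomes, whereas stromal cells make fibrillar collagens, small proteoglycans and the contractile proteins of smooth muscle. Serum response factor and its actin-sensing partners switch on contractile genes through a DNA element called the CArG box. The large T antigen binds and blocks p53 and the retinoblastoma proteins, which lets such cells divide at the permissive temperature.

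A few arrays did not sit with their labels, and this bears on the parental group. The array labelled YAMC 2 lay nearer the mp53 mean than the mean of the other YAMC arrays (root mean square distance 0.482 against 0.517). The array labelled mp53 8 lay nearer YAMC, and mp53 10 and Ras 10 lay nearer each other's population. With these 4 arrays set aside, 3 of 34945 probe sets separated all 37 infected arrays from the 9 YAMC arrays by more than 1 on the log2 scale. They are annotated to Mycn, a MYC family transcription factor, to C1s1, a complement protease, and to Ltbp2, a microfibril protein, and were chosen after their values were seen.

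The Mycn probe set stood at 7.53 to 8.50 in 9 YAMC arrays and at 13.19 to 13.66 in the 10 bleo/Neo arrays. The array labelled YAMC 2 stood at 13.82. In mp53 cells 9 arrays lay between 13.84 and 13.98, and the array labelled mp53 8 lay at 7.16. The Ras arrays ran from 13.67 to 13.89 and the mp53/Ras arrays from 13.98 to 14.16. So this probe set was near the top of the scale in every infected array except the one labelled mp53 8, and low in every YAMC array except the one labelled YAMC 2. It rose by 5.15 ± 0.55 in bleo/Neo cells with YAMC 2 included and by 5.76 without it. The other bright Mycn probe sets differed by 0.46 and 0.10, so the probe sets of this gene did not show the same change. What sets this probe set apart was not tested. For C1s1 the 9 YAMC arrays ran from 7.87 to 9.34, the array labelled YAMC 2 stood at 5.72, and bleo/Neo arrays lay at 5.29–5.76 (median 5.59). Ltbp2 had a level of 6.996 to 9.33 in those 9 YAMC arrays, 4.66 in the array labelled YAMC 2 and 4.57–5.16 (median 4.90) in bleo/Neo cells. On these 3 probe sets the array labelled YAMC 2 lay with the infected arrays, against its label. It was kept in the YAMC group. It stood apart from the other YAMC arrays for 30 of the genes named here, and without it all 30 were still called in the same direction. Of these, 8 moved by 0.2 or more: Cdh11 to −2.42, C1s1 to −3.03, Ltbp2 to −2.89, Itgb4 to −2.11, Plac8 to −4.59, Ivl to 1.46, Igf2 to 1.19 and Mycn. Of the 173 called genes named here 171 were called without it, and no difference moved by more than 1.27 times.

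The bleo/Neo arrays each lay nearest their own population mean. Over the genes that changed at least 2-fold, the array bleo/Neo 1 had a median place 0.954 of the way from the YAMC mean to the bleo/Neo mean, and the array labelled YAMC 2 a median place of 0.0879. The 10 bleo/Neo arrays ran from 0.947 (bleo/Neo 10) to 1.05 on this scale. The genes were chosen by the difference between these same arrays, so places near 0 and 1 were partly set by the choice. No 2 arrays held identical values.

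In bleo/Neo cells 4813 of the 12883 tested genes (37.4%) had changed relative to YAMC cells. Of these, 2576 (20%) were higher and 2237 (17.4%) lower. Most differences were small, with a median size of 0.17 over all tested genes and a median difference of 0.01. A 2-fold difference or more was seen for 357 genes (2.77%), 135 of them higher (1.05%) and 222 lower (1.72%), while 45.6% of genes had an unadjusted p under 0.05. Without the array labelled YAMC 2, 4802 genes were called and 362 differed at least 2-fold. The 10 bleo/Neo arrays lay above the 10 YAMC arrays for 306 genes (2.38%) and below them for 323 genes (2.51%), 4.88% of genes together. Without the array labelled YAMC 2 these counts were 401 (3.11%) and 415 (3.22%).

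**Figure D1:**
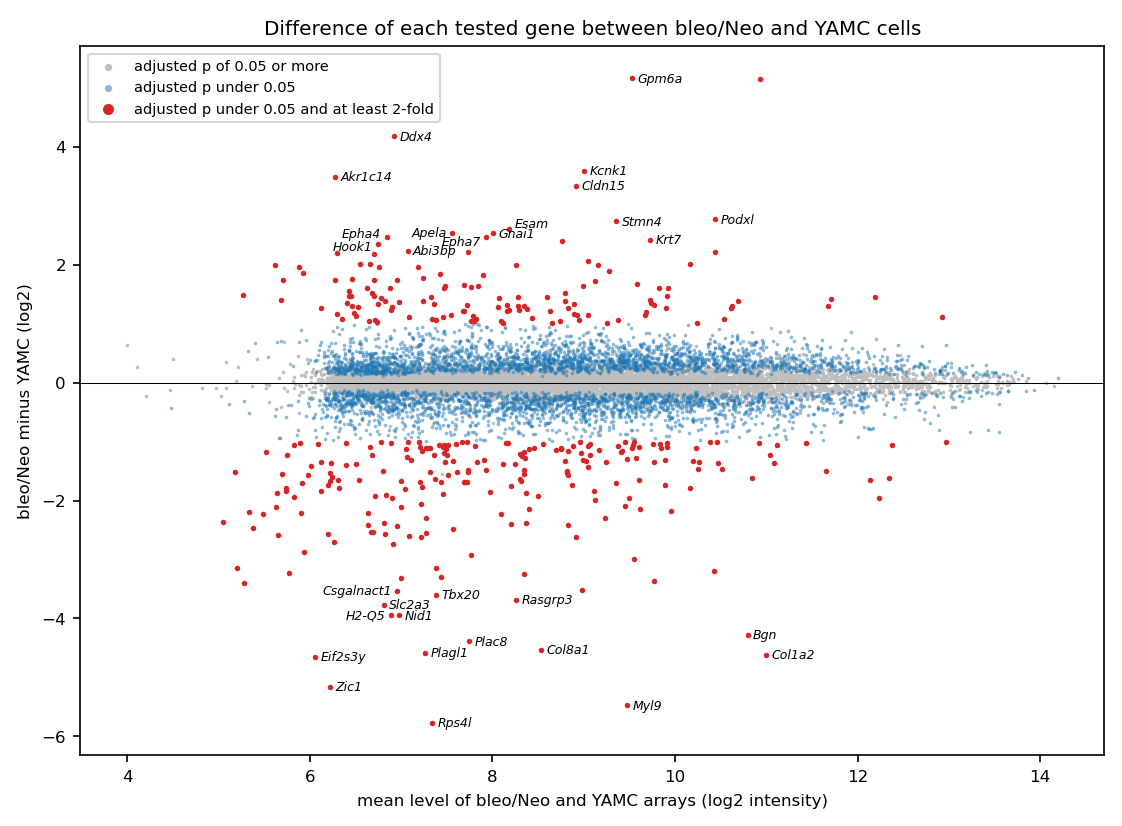
Each point is 1 of 12883 tested genes, with the mean log2 intensity of the 20 arrays on the horizontal axis and the log2 difference, bleo/Neo minus YAMC, on the vertical axis. The 357 called genes at least 2-fold apart are red, and falls reach further (to −5.77, Rps4l) and are more numerous (222) than rises (135).

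The mean bleo/Neo profile lay 0.429 (root mean square over tested genes) from YAMC, while mp53 lay 0.269, Ras 0.421 and mp53/Ras 0.538 from YAMC. It lay 0.433 from mp53, 0.481 from Ras and 0.594 from mp53/Ras. Some genes set bleo/Neo cells apart from the whole series. In 81 genes (0.629%) the 10 bleo/Neo arrays lay above the 40 other arrays, and in 113 genes (0.877%) below them. The same counts for YAMC were 1 (0.00776%) and 2 (0.0155%). They were 0 and 0 for mp53, 2 and 1 for Ras, and 35 and 189 for mp53/Ras. Without the 4 arrays that lay nearer another population, bleo/Neo had 104 such genes above and 131 below, and YAMC had 41 and 29. Of the 357 genes at least 2-fold apart from YAMC, 119 (33.3%) had bleo/Neo arrays outside the range of all 40 others and 3 had YAMC arrays outside it. The 357 were chosen by the difference between these populations, so both counts were partly set by the choice. The YAMC count also includes the array labelled YAMC 2. In the same fit, 5857 genes (45.5%) differed between bleo/Neo and the mean of the other 4 populations, 412 of them at least 2-fold (3.2%; 1.63% higher and 1.57% lower). Between YAMC and the mean of its other 4 populations 5819 genes (45.2%) differed, 207 at least 2-fold (1.61%; 1.03% higher and 0.574% lower).

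Among the 15 largest rises without overlap between the populations were membrane, junction and cytoskeletal genes. Gpm6a, which encodes a neuronal membrane glycoprotein, had levels of 5.77–7.66 (median 7.15) in YAMC arrays and 11.70–12.39 (median 12.19) in bleo/Neo arrays. It rose by 5.16 ± 0.21 (adjusted p = 1.04e-26), with no overlap between the populations. Its medians in mp53, Ras and mp53/Ras cells were 7.88, 7.35 and 7.99, so bleo/Neo stood alone. Kcnk1, a two-pore potassium channel, went from 6.24–7.72 (median 7.28) to 10.28–11.03 (median 10.86), a rise of 3.59 ± 0.20. In mp53, Ras and mp53/Ras cells Kcnk1 had medians of 5.29, 5.21 and 4.99, below YAMC rather than above it.

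Cldn15, a claudin that forms cation pores in intestinal tight junctions, had levels of 7.08–7.67 (median 7.19) in YAMC and 9.79–11.13 (median 10.74) in bleo/Neo cells. It rose by 3.33 ± 0.12 (adjusted p = 3.16e-29). Podxl, the sialomucin podocalyxin found on apical membranes, rose by 2.76 ± 0.14, from 8.71–9.71 (median 8.95) to 11.20–12.41 (median 11.73). Both genes had bleo/Neo arrays above all 40 others. Esam, an adhesion molecule of endothelial and other junctions, rose by 2.61 ± 0.09 to 8.58–9.70 (median 9.59), and its lowest bleo/Neo value was that of the array bleo/Neo 1.

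Akr1c14, a hydroxysteroid dehydrogenase of the aldo-keto reductase family, had levels of 4.16–5.02 (median 4.46) in YAMC and 6.90–8.92 (median 8.11) in bleo/Neo cells. Its rise of 3.49 ± 0.17 starts from levels below the filter on low values. Stmn4, a stathmin that binds tubulin, rose by 2.73 ± 0.11, from 7.75–8.27 (median 7.97) to 10.43–11.29 (median 10.68). Hook1, an adaptor that links cargo to microtubules, rose by 2.34 ± 0.16. Gnai1, an inhibitory G protein alpha subunit, rose by 2.54 ± 0.22 and Apela, a secreted peptide that binds the apelin receptor, by 2.54 ± 0.17. The ephrin receptor genes Epha4 and Epha7 rose by 2.47 ± 0.18 and 2.47 ± 0.20. Abi3bp, an extracellular matrix protein, rose by 2.24 ± 0.29, and in mp53 cells it had a median of 7.73, within the bleo/Neo range. The bleo/Neo arrays lay above all 40 others for 11 of these 15 genes, beside 0.629% of all tested genes. The 15 were chosen because their bleo/Neo arrays all lay above the YAMC arrays, so this share was partly set by the choice. A gene could also pass the filter on low values through the 10 bleo/Neo arrays alone.

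Ddx4 behaved differently from the other large rises. This germ-cell RNA helicase had levels of 4.30–5.48 (median 4.81) in YAMC and 7.88–10.29 (median 8.90) in bleo/Neo arrays, a rise of 4.17 ± 0.48 (adjusted p = 4.14e-10). The mp53 median was 5.20, that of Ras 10.06 and that of mp53/Ras 9.32. High levels were therefore shared by bleo/Neo, Ras and mp53/Ras cells, and low levels by YAMC and mp53 cells, apart from the arrays mp53 10 (10.05) and Ras 10 (4.74). Of 9 tested germ-cell genes, 2 rose (22.2%) and none fell. Over all tested genes 20% rose, a share near that of this list, and 17.4% fell. The other that rose was Tdrd1, a tudor protein of the piRNA pathway, by 0.31 ± 0.07. Dazl, Sycp3 and Stra8, which mark germ cells, did not pass the filter.

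**Figure D2:**
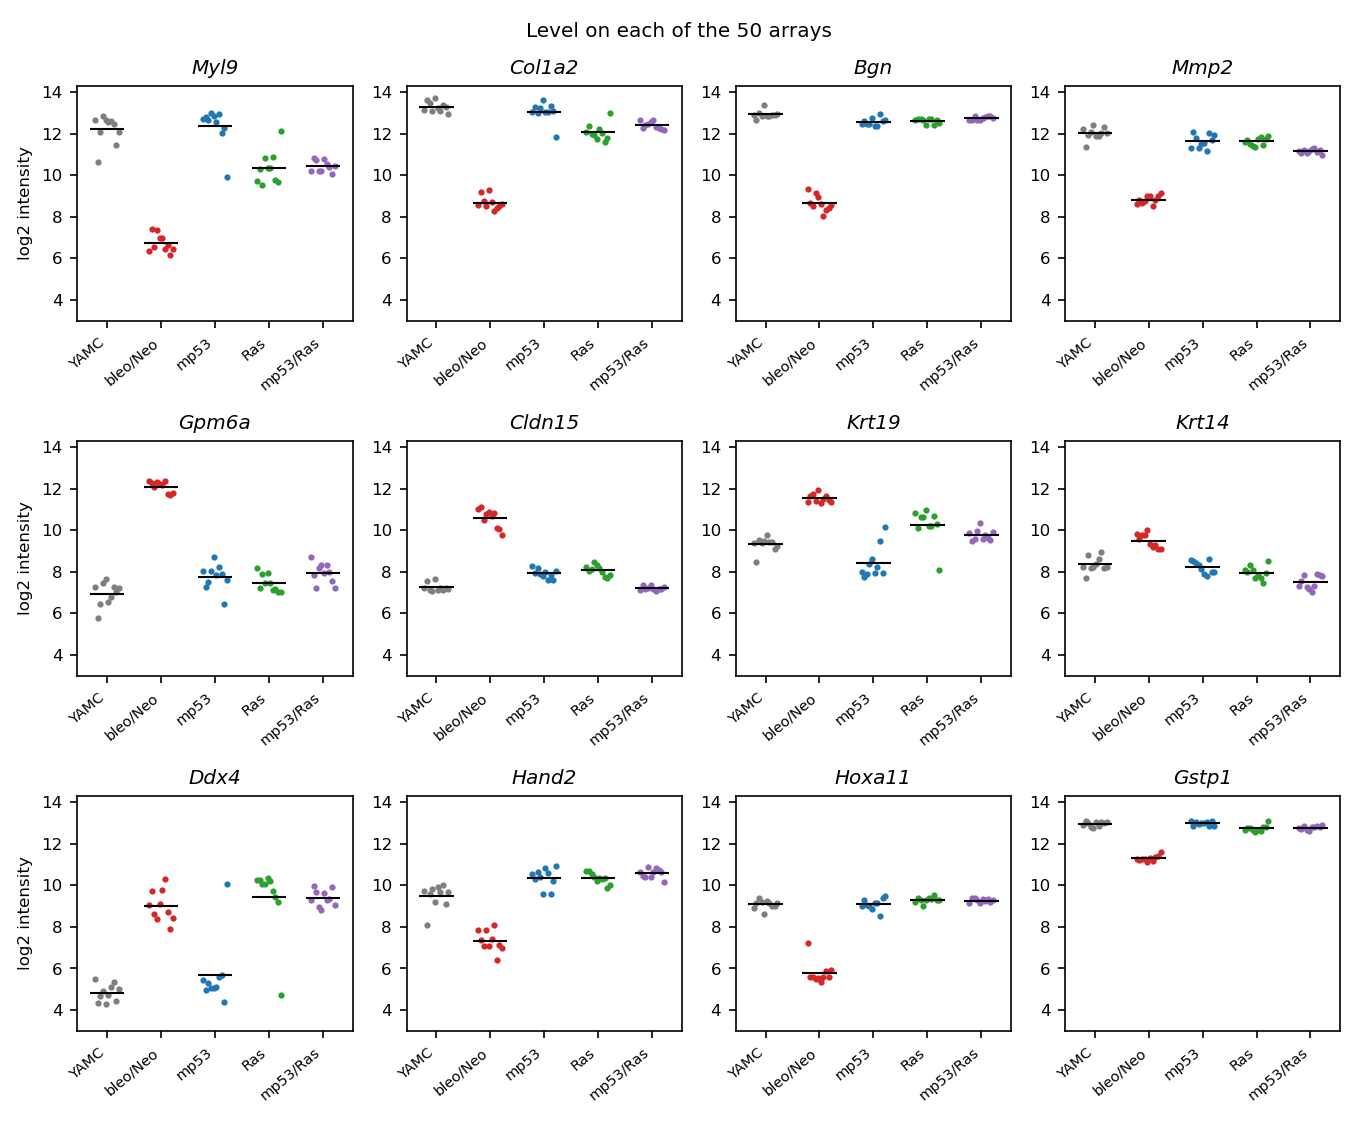
Log2 intensity on each of the 50 arrays for 12 genes, in the 5 populations in the order YAMC, bleo/Neo, mp53, Ras and mp53/Ras; points are arrays and bars are means. The bleo/Neo arrays are below all others for Myl9, Col1a2, Bgn, Mmp2, Hand2, Hoxa11 and Gstp1, and above all others for Gpm6a, Cldn15, Krt19 and Krt14. For Ddx4 they are high, as are the mp53/Ras arrays and most Ras arrays. The Ddx4 medians of Ras and mp53/Ras cells are higher than that of bleo/Neo cells.

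Among the 15 largest falls, chosen in the same way, the first was Rps4l. This close relative of ribosomal protein S4 had levels of 9.75–10.54 (median 10.29) in YAMC and 4.01–5.07 (median 4.41) in bleo/Neo arrays, a difference of −5.77 ± 0.13. Its medians in the mp53, Ras and mp53/Ras populations were 10.30, 9.73 and 9.51. Plac8, a small cysteine-rich protein, fell by 4.39 ± 0.23, from 8.11–10.76 (median 10.20) to 5.15–6.14 (median 5.55), while Ras and mp53/Ras cells had medians of 11.20 and 11.77, above YAMC. Slc2a3, a high-affinity glucose transporter, fell by 3.76 ± 0.21 to 4.68–5.23 (median 4.94). Csgalnact1, which starts chondroitin sulfate chains, fell by 3.53 ± 0.10, but another bright probe set of the gene fell by 0.97. Rasgrp3, an exchange factor that activates Ras, fell by 3.68 ± 0.27, from 9.54–10.36 (median 10.22) to 6.04–6.69 (median 6.45), and its medians were also lower in Ras and mp53/Ras cells (7.54 and 7.36) than in YAMC and mp53 cells (mp53 median 10.58). The bleo/Neo arrays lay below all 40 others for 14 of the 15 largest falls, with Plagl1 the exception, beside 0.877% of all tested genes. These 15 were likewise chosen because their bleo/Neo arrays all lay below the YAMC arrays, so this share was partly set by the choice.

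Smooth muscle contractile genes moved together. Of 25 tested members, 19 fell and none rose, against 17.4% lower and 20% higher over all tested genes, and 7 fell at least 2-fold. The same background applies to every list count below. The median member difference was −0.67. By role, 7 of 8 actins and myosins fell, 7 of 9 thin-filament regulators, 3 of 5 cytoskeletal anchors and 2 of 3 regulators.

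Myl9, the regulatory myosin light chain of smooth muscle, had levels of 10.66–12.87 (median 12.53) in YAMC and 6.18–7.43 (median 6.58) in bleo/Neo arrays. It fell by 5.47 ± 0.28 (adjusted p = 2.45e-22). The mp53 median was 12.71, that of Ras 10.31 and that of mp53/Ras 10.43, so the bleo/Neo arrays lay below every other array. Actg2, the enteric smooth muscle actin, went from 8.06–10.36 (median 9.37) to 5.88–6.78 (median 6.22), a difference of −2.93 ± 0.32, and again the bleo/Neo arrays were the lowest of the series. Acta1, the skeletal alpha-actin, fell by 1.68 ± 0.19, and its bleo/Neo levels of 6.23–7.15 (median 6.55) stood beside Ras and mp53/Ras medians of 6.05 and 6.30. Cnn1, the thin-filament protein calponin, fell by 2.07 ± 0.21, and Ras and mp53/Ras cells had still lower medians (5.20 and 5.18) than bleo/Neo cells (6.17). Vcl, the adhesion-site anchor vinculin, fell by 1.06 ± 0.14.

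Promoters of these genes are shown because 8 of 30 promoters of tested contractile genes (26.7%) held a CArG box in the 250 bases before the start, compared with 157 of 13239 promoters of all tested genes (1.19%). The share was 8 of 220 (3.64%) among genes at least 2-fold lower and 0 of 129 among genes at least 2-fold higher. Myl9, Acta1 and Vcl are counted both as contractile genes and as genes at least 2-fold lower. Contractile genes are switched on through the CArG box, as given above, and the contractile list holds Srf itself. The high share in that list was therefore partly set by the choice of list. The sequences are from RefSeq (GRCm38.p6), 5′ to 3′ on the gene's strand, and 23 of the 25 contractile genes had a promoter there. Capitals mark CArG boxes, TATAAA and CCAAT, searched on both strands, where matches may overlap. Col1a2 is shown for comparison as a large fall without a CArG box in this window. The stretches are Myl9 at chr2:156775214-156775463 on the plus strand, Acta1 at chr8:123894776-123895025 on the minus strand, Vcl at chr14:20929148-20929397 on the plus strand, Srf at chr17:46556163-46556412 on the minus strand and Col1a2 at chr6:4505368-4505617 on the plus strand.
Myl9: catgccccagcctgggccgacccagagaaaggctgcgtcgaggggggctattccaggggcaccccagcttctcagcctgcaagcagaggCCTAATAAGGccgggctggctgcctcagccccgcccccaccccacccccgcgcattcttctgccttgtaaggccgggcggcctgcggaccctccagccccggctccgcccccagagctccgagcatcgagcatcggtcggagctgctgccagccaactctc
Acta1: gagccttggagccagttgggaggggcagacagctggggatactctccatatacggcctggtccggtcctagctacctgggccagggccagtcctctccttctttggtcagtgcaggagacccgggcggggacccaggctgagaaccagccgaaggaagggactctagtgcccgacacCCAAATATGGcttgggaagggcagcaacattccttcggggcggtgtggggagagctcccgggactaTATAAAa
Vcl: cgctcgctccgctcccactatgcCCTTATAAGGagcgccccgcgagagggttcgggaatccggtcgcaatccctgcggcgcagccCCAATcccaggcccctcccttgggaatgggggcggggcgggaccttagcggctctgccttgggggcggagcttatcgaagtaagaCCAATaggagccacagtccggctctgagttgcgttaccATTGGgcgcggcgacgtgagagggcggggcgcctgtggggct
Srf: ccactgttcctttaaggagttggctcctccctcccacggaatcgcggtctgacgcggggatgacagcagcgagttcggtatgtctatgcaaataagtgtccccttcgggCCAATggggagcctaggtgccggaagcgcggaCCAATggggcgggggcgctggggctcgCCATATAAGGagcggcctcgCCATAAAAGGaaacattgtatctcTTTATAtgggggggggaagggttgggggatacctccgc
Col1a2: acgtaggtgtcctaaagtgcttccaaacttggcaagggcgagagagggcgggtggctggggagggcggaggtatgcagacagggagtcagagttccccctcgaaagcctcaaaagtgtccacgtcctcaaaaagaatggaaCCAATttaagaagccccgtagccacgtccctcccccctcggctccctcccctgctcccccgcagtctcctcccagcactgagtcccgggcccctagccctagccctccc

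The CArG box began 161 bases before the start in Myl9, 73 in Acta1 and 227 in Vcl, and Srf held a pair of boxes, 82 and 62 bases before the start. Myl9, Acta1 and Vcl fell as given above. Srf itself, the serum response factor gene, fell by 0.71 ± 0.09 (adjusted p = 3.68e-09). The other contractile genes with a box were Cnn2, Myl6, Filip1l and Actc1, named here because they hold it. Cnn2 fell by 0.55 ± 0.06, Myl6 by 0.67 ± 0.11 and Filip1l by 0.37 ± 0.15, while Actc1 did not pass the test (−0.12). Filip1l lost its call when 14 of the 20 arrays were left out in turn (adjusted p = 0.109 without YAMC 5). TATAAA was present in 6.9% of all promoters, 11.6% of those of genes at least 2-fold higher and 11.4% of those at least 2-fold lower, and CCAAT in 34.7%, 34.1% and 30.9%. GGGCGG was present in 55.2%, 45% and 49.1%. Actg2 (−2.93) and Cnn1 (−2.07) also fell and were not among the genes with a box found in this window. These matches describe letters only, and binding was not measured. Any link between the box and the falls was not tested.

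Collagen genes moved in both directions, with 8 of 23 interstitial collagen genes lower (34.8%) and 5 higher (21.7%) (median −0.15). Over all tested genes 17.4% were lower and 20% higher, so the share of higher genes was near background. Col1a2, an alpha chain of type I collagen, had levels of 12.93–13.74 (median 13.28) in YAMC and 8.27–9.29 (median 8.59) in bleo/Neo arrays. It fell by 4.62 ± 0.14 (adjusted p = 1.72e-31) and a further probe set of the gene fell by 5.30. Col1a1, whose product joins that of Col1a2 in the type I trimer, fell by 0.80 ± 0.20, from 12.83–13.81 (median 13.21) to 11.65–13.36 (median 12.30). The ranges of the populations overlapped for Col1a1 and did not for Col1a2. Col5a1, which regulates fibril diameter, fell by 0.79 ± 0.18. Col8a1, a short-chain network collagen, fell by 4.54 ± 0.20, from 8.95–11.39 (median 11.17) to 5.99–6.71 (median 6.28). Col22a1 moved the other way, by 0.43 ± 0.08.

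Of 19 basement membrane genes 9 fell (47.4%) and 2 rose (10.5%), with a median of −0.31, beside 17.4% and 20% over all tested genes. The type IV collagen chains Col4a1 and Col4a2, made from a shared promoter region, fell by 1.06 ± 0.15 and 1.37 ± 0.18. Col4a2 went from 11.33–12.20 (median 11.73) in YAMC to 9.55–11.21 (median 10.20) in bleo/Neo arrays, without overlap. Col4a6, a chain of a separate type IV trimer, rose by 1.17 ± 0.15, from 7.57–8.97 (median 8.30) to 8.64–10.20 (median 9.44). Nid1, which links laminin to type IV collagen, fell by 3.95 ± 0.22 by its brightest probe set, with another bright probe set at −0.04. Nid2, its relative, fell by 1.41 ± 0.19. The dishes were coated with collagen IV in all groups.

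Of 28 tested proteoglycan and matricellular genes, 15 fell (53.6%) and 6 rose (21.4%), 3 without YAMC 9 (median −0.39). Over all tested genes these shares were 17.4% and 20%. Of 5 small leucine-rich proteoglycans, 4 fell and 1 rose. Bgn, biglycan, had levels of 12.68–13.40 (median 12.90) in YAMC and 8.03–9.34 (median 8.59) in bleo/Neo arrays and fell by 4.28 ± 0.10, with other bright probe sets at −4.86 and −4.80. Its medians were 12.54, 12.66 and 12.77 in mp53, Ras and mp53/Ras cells, and the bleo/Neo arrays lay below all 40 others. Dcn, decorin, the nearest relative of biglycan, rose by 1.44 ± 0.19, from 10.76–11.80 (median 11.59) to 12.19–13.30 (median 13.04). The pair thus moved in opposite directions. Ccn2, connective tissue growth factor, fell by 1.97 ± 0.11 to 10.55–11.77 (median 11.44), below all other arrays, and Tnc, tenascin C, fell by 1.31 ± 0.24.

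Of 12 elastic fibre genes, 5 fell (41.7%) and none rose, beside 17.4% and 20% over all tested genes. Ltbp1, which tethers latent TGF-beta to microfibrils, went from 7.81–8.46 (median 8.12) to 5.26–5.75 (median 5.55), a difference of −2.58 ± 0.11. Fbln5, fibulin 5, fell by 1.62 ± 0.14, with Ras and mp53/Ras medians (11.45 and 11.53) inside the bleo/Neo range. Ltbp2, already described as lower in infected arrays in general, fell by 2.57 ± 0.26 and by 2.89 without the array labelled YAMC 2. Of 21 collagen-processing genes, 9 fell (42.9%) and 1 rose (4.8%), beside the same background. The prolyl hydroxylase P4ha1 fell by 1.11 ± 0.17, the lysyl hydroxylase Plod3 by 0.57 ± 0.08, and P3h3 rose by 0.38 ± 0.11.

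Among matrix proteases and their inhibitors, 7 of 25 fell (28%) and 3 rose (12%), beside 17.4% and 20% over all tested genes. When YAMC 2, YAMC 5 or YAMC 7 was left out, 5 rose. Mmp2, gelatinase A, had levels of 11.38–12.43 (median 12.04) in YAMC and 8.50–9.16 (median 8.81) in bleo/Neo arrays and fell by 3.19 ± 0.10. The Mmp2 medians of mp53, Ras and mp53/Ras cells were 11.63, 11.66 and 11.18, and the bleo/Neo arrays lay below all 40 others. Mmp23 fell by 1.78 ± 0.16. Plat, tissue plasminogen activator, rose by 0.76 ± 0.12. Integrins moved in both directions, with 6 of 16 lower (37.5%) and 3 higher (18.75%), the latter near the 20% of all tested genes. The collagen-binding subunit Itga1 fell by 1.38 ± 0.27 and Itgb4, the hemidesmosome subunit, by 1.87 ± 0.31. Itgb8, which takes part in TGF-beta activation, rose by 1.83 ± 0.25 and Itgb2, a leukocyte subunit, by 1.75 ± 0.18.

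**Figure D3:**
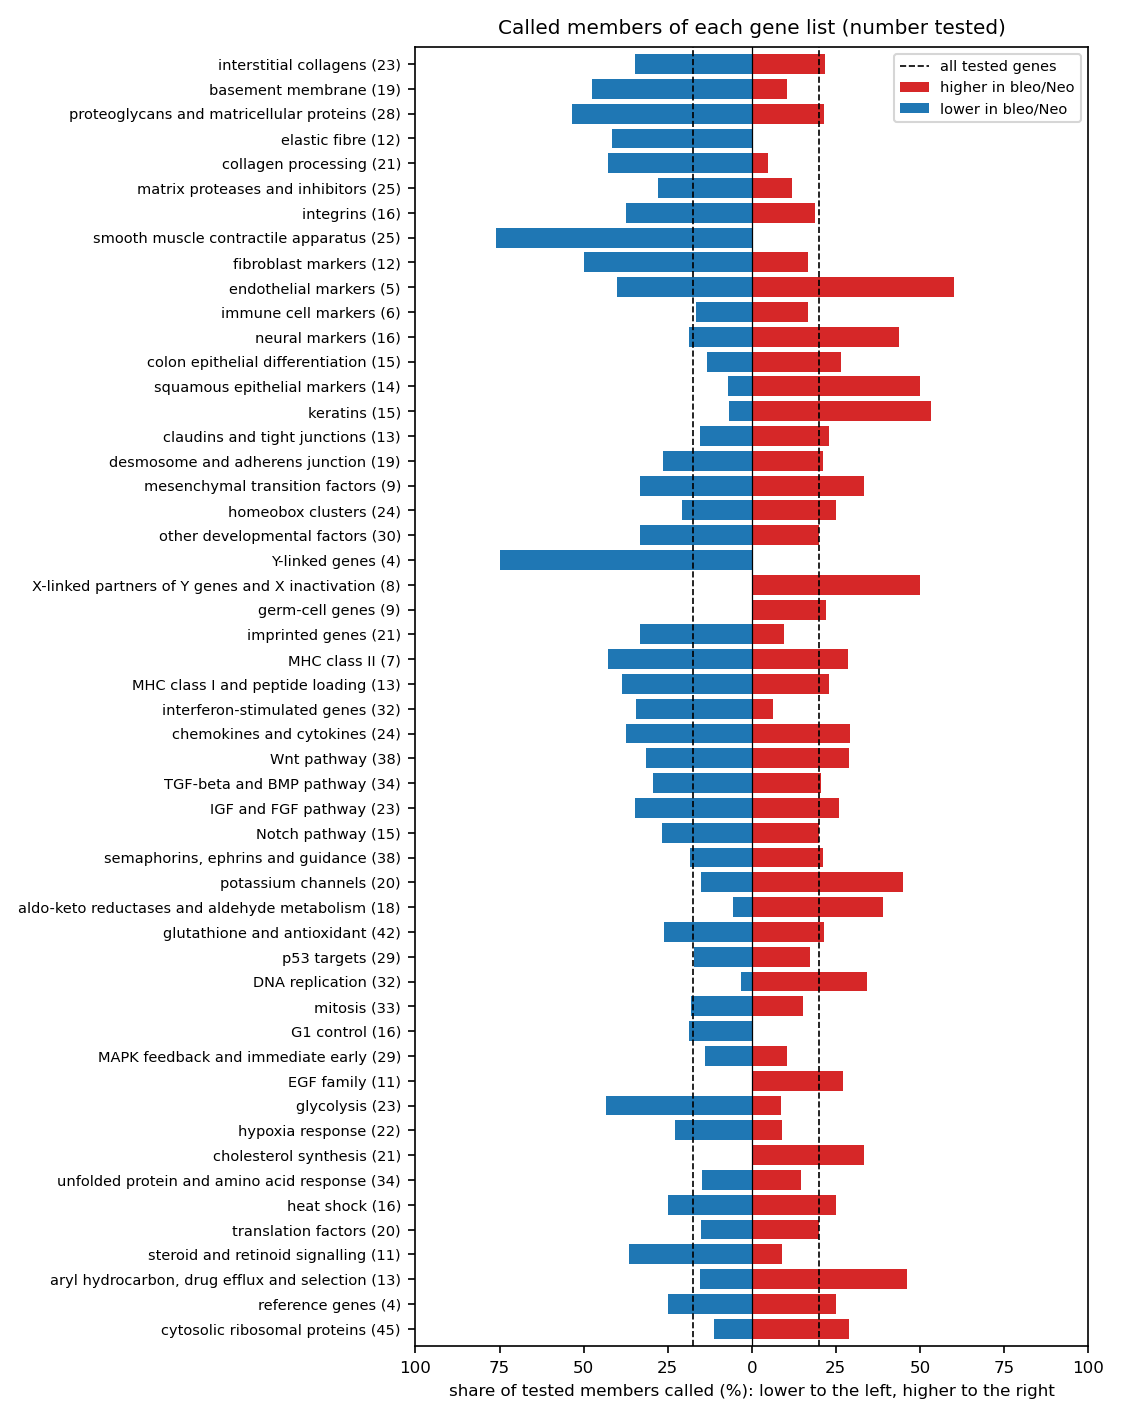
Share of the tested members of 52 gene lists called higher (right, red) or lower (left, blue) in bleo/Neo than in YAMC cells, in percent, with the number of tested members in brackets; dashed lines mark 20% higher and 17.4% lower over all tested genes. Among lists of over 10 members, contractile genes reach furthest left (19 of 25 lower), and keratins (8 of 15) and squamous markers (7 of 14) furthest right.

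Of 15 tested keratin genes 8 rose in bleo/Neo cells (53.3%) and 1 fell (6.7%), with a median of 0.29, beside 20% and 17.4% over all tested genes. Among type I keratins 6 of 8 rose. Krt19, a simple epithelial keratin, had levels of 8.49–9.78 (median 9.42) in YAMC and 11.32–11.95 (median 11.48) in bleo/Neo arrays, a rise of 2.21 ± 0.24. Krt7, a ductal and glandular type II keratin, rose by 2.42 ± 0.17, from 7.04–8.92 (median 8.67) to 10.39–11.46 (median 10.95). For both genes the bleo/Neo arrays were the highest of the series. Krt14, the basal-layer keratin, rose by 1.14 ± 0.14 and Krt15, another basal keratin, by 1.96 ± 0.21, with a Ras median (8.69) within the bleo/Neo range for Krt15. Krt18 rose by 0.70 ± 0.14, but mp53, Ras and mp53/Ras medians were 11.59, 12.26 and 12.70, above bleo/Neo (11.20). Krt4 fell by 0.29 ± 0.10; it was not called without the array labelled YAMC 2 (adjusted p = 0.0502).

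Of 14 tested squamous epithelial markers, 7 rose (50%) and 1 fell (7.1%), with a median of 0.35, beside 20% and 17.4% over all tested genes. Ivl, involucrin of the cornified envelope, rose by 1.71 ± 0.36, from 6.02–9.28 (median 8.29) to 9.40–10.49 (median 10.02). Its YAMC range was wide, and the lowest value was that of the array labelled YAMC 2. Sprr1a, a small proline-rich envelope protein, rose by 1.47 ± 0.29, Sbsn, suprabasin, by 1.30 ± 0.15, and Lor, loricrin, by 0.84 ± 0.10. Ras cells had higher Ivl and Sprr1a medians (10.96 and 10.76) than bleo/Neo cells (10.02 and 10.65). Pkp1, the squamous plakophilin, fell by 0.63 ± 0.10. The summed linear intensity of all 17 markers on the array was 3349–9204 (median 4423) in YAMC and 8558–14857 (median 9804) in bleo/Neo arrays.

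Junction genes were mixed. Of 13 tight junction genes 3 rose and 2 fell, and of 19 desmosome and adherens junction genes 4 rose and 5 fell. Besides Cldn15, the zonula occludens gene Tjp3 rose by 0.83 ± 0.11, while Cgn, cingulin, fell by 0.52 ± 0.10. Perp, a desmosome protein and p53 target, rose by 1.41 ± 0.30, from 9.21–11.89 (median 11.06) to 11.73–12.87 (median 12.43), and Pkp2 fell by 0.82 ± 0.17. Cdh2, N-cadherin, rose by 0.42 ± 0.11. Cdh11, a mesenchymal cadherin, went from 8.25–11.33 (median 10.92) to 8.09–9.13 (median 8.50), a difference of −2.15 ± 0.22, and its lowest YAMC value was that of the array labelled YAMC 2. Cdh1, E-cadherin, did not pass the filter on low values.

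Of 31 colon differentiation genes on the array, 15 passed the filter on low values and 16 did not. Epcam and Foxa2 were among the 15, while Cdx1, Cdx2, Vil1, Cdh17, Car1 and Slc26a3, which define intestinal epithelium, did not pass. The summed linear intensity of all 31 genes was 7792–10374 (median 9353) in YAMC and 9313–11237 (median 10403) in bleo/Neo arrays. Among the 15, 4 rose and 2 fell. Lgals2, galectin 2, rose by 2.21 ± 0.24, from 6.02–7.02 (median 6.66) to 7.94–9.92 (median 8.86), with another bright probe set at 0.39. Foxa2, a forkhead factor of gut endoderm, rose by 0.92 ± 0.18. Epcam, an epithelial surface marker, fell by 0.33 ± 0.10. Factors that drive epithelial to mesenchymal transition were mixed, with 3 of 9 higher and 3 lower; 1 was higher without bleo/Neo 4 or bleo/Neo 7. Zeb1 fell by 0.84 ± 0.11, Snai1 by 0.56 ± 0.11, and Esrp2, an epithelial splicing factor on that list, rose by 0.38 ± 0.11.

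Markers of other cell types were checked, since in bulk samples fewer cells of a type and less RNA per cell cannot be told apart. Of 12 tested fibroblast markers, 6 fell (50%) and 2 rose (16.7%), beside 17.4% and 20% over all tested genes. All 18 on the array had a summed linear intensity of 44596–70825 (median 54532) in YAMC and 33319–50959 (median 40092) in bleo/Neo arrays. Col1a1 and Col1a2 are counted in this sum, so it is not separate from their falls. Pdgfra, Thy1, Fap and Lum of that list did not pass the filter. Cd34, a progenitor and stromal surface marker, fell by 0.97 ± 0.08, from 11.81–12.43 (median 12.13) to 10.78–11.50 (median 11.11). The 13 contractile markers on the array summed to 49173–67213 (median 59408) and 27674–38862 (median 32408), with Myh11 and Synpo2 below the filter. Myl9, Actg2 and Cnn1 are counted in that sum. The part of these cell types in the falls of matrix and contractile genes was not tested.

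Of 16 tested neural markers, 7 rose (43.75%) and 3 fell (18.75%), beside 20% and 17.4% over all tested genes. The sum of all 26 on the array went from 4233–5114 (median 4475) to 8312–11024 (median 9788). Gpm6a and Stmn4 are counted in this sum, so it is not separate from their rises. The neuronal genes Stmn2, Map2, Dcx, Nefl and Snap25 did not pass the filter. Tubb3, neuronal tubulin, rose by 0.50 ± 0.11 and Gap43, a growth-cone protein, by 0.63 ± 0.08, and the adhesion molecule Ncam1 fell by 1.35 ± 0.11. All 5 tested endothelial markers changed. Esam, Eng and the angiopoietin receptor gene Tek rose, Tek by 1.30 ± 0.14, while the VEGF receptor genes Kdr and Flt1 fell by 0.47 ± 0.11 and 0.34 ± 0.07. Pecam1, Cdh5 and Vwf, which define endothelium, did not pass the filter. Of 6 tested immune markers 1 rose (Cd68, 0.56 ± 0.18) and 1 fell, and Ptprc, the pan-leukocyte marker, did not pass the filter.

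Developmental transcription factors included some of the widest gaps in the comparison. Zic1, a zinc-finger factor of dorsal neural and mesodermal tissue, had levels of 7.05–9.34 (median 8.99) in YAMC and 3.43–4.10 (median 3.63) in bleo/Neo arrays. The difference of −5.16 ± 0.20 ends near the lowest value of the table (3.04), so it is limited by background. Tbx20, a T-box factor of cardiac mesoderm, fell by 3.60 ± 0.22, from 7.88–9.68 (median 9.35) to 4.68–6.44 (median 5.46). Hand2, a factor of gut mesenchyme and limb, fell by 2.14 ± 0.18, from 8.10–10.01 (median 9.67) to 6.42–8.10 (median 7.26), and Foxf1, a forkhead factor of gut mesenchyme, by 0.87 ± 0.10. Another bright probe set of each differed by −0.65 and −0.30. In Hand2 and Foxf1 the bleo/Neo arrays lay below all 40 others. Gata3 fell by 1.34 ± 0.18, and Foxc1 rose by 0.63 ± 0.12. Of 30 such factors outside the Hox clusters, 10 fell and 6 rose.

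Hox genes, whose clusters encode position along the body axis, were few per cluster, and differences between clusters were not tested. Of 6 tested Hoxc genes 4 rose and none fell, and of 7 Hoxb genes 2 rose and 2 fell. Of 6 Hoxa genes 1 fell and of 5 Hoxd genes 2 fell, and none of either rose. Hoxa11 had levels of 8.62–9.38 (median 9.14) in YAMC and 5.34–7.21 (median 5.60) in bleo/Neo arrays, a difference of −3.30 ± 0.13, while the highest bleo/Neo value was that of bleo/Neo 1. The other 5 tested Hoxa genes were not called. Hoxb9 rose by 1.29 ± 0.11, from 7.08–7.79 (median 7.46) to 8.05–9.22 (median 8.73), and Hoxb6 fell by 0.76 ± 0.09. Hoxc10 and Hoxc4 rose by 0.83 ± 0.16 and 0.82 ± 0.08. Over the 24 tested Hox genes 6 rose and 5 fell, near the background of all genes.

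Of 4 tested Y-linked genes, 3 were near the floor in bleo/Neo cells. Eif2s3y, a translation initiation subunit, had levels of 7.51–9.34 (median 8.59) in YAMC arrays and 3.46–3.92 (median 3.75) in bleo/Neo arrays. Kdm5d, a histone demethylase, went from 6.15–7.55 (median 6.89) to 3.43–4.35 (median 3.60), and Uty, a related demethylase, from 6.07–7.57 (median 7.10) to 3.47–3.82 (median 3.55). In each of these 3 genes the bleo/Neo arrays lay below all 40 others. The differences of −4.65 ± 0.17, −3.14 ± 0.19 and −3.40 ± 0.19 are limited by background. Zfy2 differed by −0.08 ± 0.10 and was not called.

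Xist, the RNA that coats an inactive X chromosome, was detected beside Y-linked transcripts in YAMC cells. Its levels were 7.31–8.76 (median 8.19) in YAMC and 8.68–10.73 (median 9.52) in bleo/Neo arrays, a rise of 1.52 ± 0.25 with overlapping ranges. Its medians in mp53, Ras and mp53/Ras cells were 6.99, 8.83 and 9.41. The mp53/Ras cells thus had a Xist median near that of bleo/Neo cells and kept Y-linked transcripts. Of the 6 X-linked partners of Y genes, Eif2s3x (0.34 ± 0.07), Kdm5c (0.53 ± 0.09) and Kdm6a (0.40 ± 0.12) rose and the other 3 were not called.

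**Figure D4:**
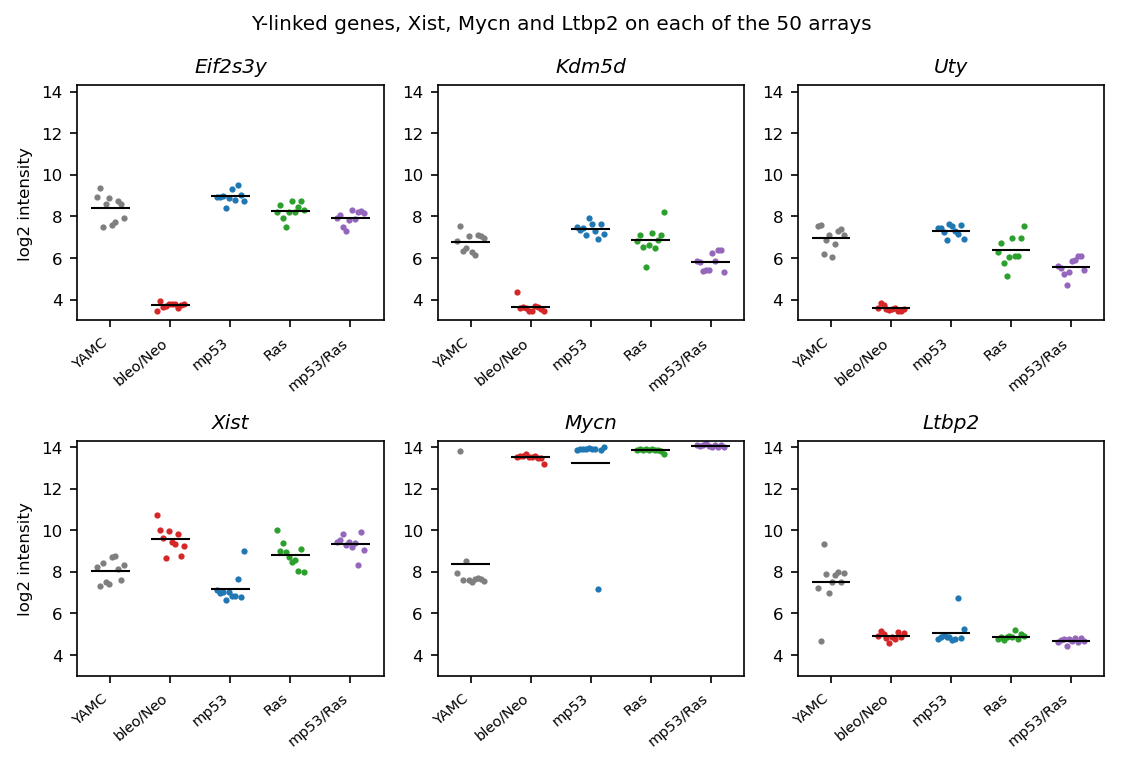
Log2 intensity on each of the 50 arrays for 3 Y-linked genes, Xist, and the Mycn and Ltbp2 probe sets, in the 5 populations; points are arrays and bars are means. The 3 Y-linked genes are between 3.43 and 4.35 in bleo/Neo cells, and for Mycn and Ltbp2 a single YAMC array lies with the infected populations and a single mp53 array with YAMC.

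Of 21 tested imprinted genes, which are read from a single parental copy, 7 fell and 2 rose. Plagl1, a paternally expressed zinc-finger factor, had levels of 9.002–10.21 (median 9.49) in YAMC and 4.56–5.67 (median 4.87) in bleo/Neo arrays. It fell by 4.58 ± 0.39, while another bright probe set differed by −0.04. The Plagl1 medians of mp53, Ras and mp53/Ras cells were 11.52, 6.70 and 6.25, so each infected population other than mp53 was below YAMC. Igf2r, the maternally expressed IGF2 scavenger receptor, fell by 1.07 ± 0.12 and Sgce, paternally expressed, by 1.06 ± 0.11. Peg3 rose by 1.21 ± 0.20. Igf2 rose by 0.94 ± 0.31, and by 1.19 without the array labelled YAMC 2, whose value of 9.02 lay above the other YAMC arrays.

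Antigen presentation genes were lower in part. Of 7 tested MHC class II genes 3 fell and 2 rose. H2-Aa, a class II alpha chain, had levels of 8.20–9.18 (median 8.71) in YAMC and 5.15–5.55 (median 5.34) in bleo/Neo arrays and fell by 3.31 ± 0.27. H2-Eb1 and H2-Ab1, class II beta chains, fell by 1.37 ± 0.21 and 0.86 ± 0.11. H2-Oa and Ciita, the class II transactivator, rose by 0.37 ± 0.06 and 0.23 ± 0.07, small differences at low levels. Among 13 class I and peptide-loading genes 5 fell and 3 rose. The classical class I gene H2-K1 fell by 0.84 ± 0.07 by its brightest probe set, and its other bright probe sets differed by −1.05, −3.22 and −1.52. Tapbp, the loading protein tapasin, fell by 0.50 ± 0.07, whereas the immunoproteasome subunit gene Psmb9 rose by 0.42 ± 0.11. H2-Q5, a non-classical class I gene, fell by 3.94 ± 0.14 by its brightest probe set, and another bright probe set differed by 0.34. MHC genes have near-identical relatives, so probe sets may not tell members apart.

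Of 32 tested interferon-stimulated genes, 11 fell (34.4%) and 2 rose (6.25%), with a median of −0.25, beside 17.4% and 20% over all tested genes. Without the array labelled YAMC 2, 19 fell. The guanylate-binding protein gene Gbp2 had levels of 10.18–11.74 (median 10.80) in YAMC and 9.35–9.95 (median 9.48) in bleo/Neo arrays, a difference of −1.33 ± 0.15. Gbp3 fell by 1.02 ± 0.17, and Ifit2 rose by 0.35 ± 0.10. The chemokine Cxcl12, a stromal signal for CXCR4, fell by 2.41 ± 0.29, from 8.83–10.75 (median 10.17) to 6.81–8.87 (median 7.39). Its other bright probe sets differed by −2.53 and 0.12. Cxcl14 fell by 1.66 ± 0.15 and Cxcl10, an interferon-induced chemokine, by 1.29 ± 0.20. Cxcl15 rose by 1.40 ± 0.35, with another bright probe set at 0.12, and the mp53, Ras and mp53/Ras medians (7.36, 6.83 and 8.51) were all above YAMC (4.92). Over the 24 tested chemokines and cytokines 9 fell and 7 rose.

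Secreted signals and their antagonists changed in a mixed way. Of 9 tested Wnt ligands 4 rose and 1 fell. Wnt11 had levels of 8.44–9.41 (median 9.21) in YAMC and 9.87–11.25 (median 10.81) in bleo/Neo arrays, above all other arrays, and rose by 1.61 ± 0.16. Wnt10a rose by 1.52 ± 0.12 and Wnt4 by 1.38 ± 0.19. Wnt5a, a non-canonical ligand of gut mesenchyme, fell by 1.53 ± 0.13, from 9.09–9.89 (median 9.62) to 7.67–8.51 (median 8.03). Dkk2, a Wnt antagonist, fell by 2.60 ± 0.28. Of 17 Wnt receptors and co-receptors 9 fell and 4 rose, and of 5 Wnt targets 1 rose.

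In the TGF-beta and BMP list 10 of 34 genes fell and 7 rose. Bmp6 had levels of 8.23–9.37 (median 8.91) in YAMC and 6.79–7.54 (median 6.99) in bleo/Neo arrays and fell by 1.86 ± 0.12. The antagonists follistatin (Fst) and chordin (Chrd) rose, Fst from 8.12–9.78 (median 9.41) to 10.63–11.46 (median 11.32) by 2.02 ± 0.15 and Chrd by 1.65 ± 0.08. For both antagonists the bleo/Neo arrays were the highest of the series. In the IGF and FGF list 8 of 23 genes fell and 6 rose. Igf1 fell by 2.38 ± 0.16, from 7.98–10.28 (median 9.70) to 6.92–7.50 (median 7.20), below all other arrays. The receptor gene Fgfr1 fell by 1.80 ± 0.18 and the binding protein gene Igfbp7 by 1.49 ± 0.13, whereas Fgf13, an intracellular FGF-related protein, rose by 1.86 ± 0.15.

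Of 11 EGF family genes 3 rose and none fell. Betacellulin (Btc) rose by 1.33 ± 0.15 and epiregulin (Ereg) by 1.14 ± 0.22, with Ras medians of 7.87 and 10.74 above those of bleo/Neo (7.30 and 10.21). Notch genes were near background, with 3 of 15 higher and 4 lower, among them Jag1, a ligand (0.76 ± 0.11), and Notch2, a receptor (−0.55 ± 0.11). Guidance genes were also near background, 8 of 38 higher and 7 lower, with 6 of 15 ephrin and ephrin receptor genes higher and 3 lower. These included Epha7, which went from 6.07–7.29 (median 6.70) to 8.23–9.51 (median 9.31), and Ephb6 (1.13 ± 0.13). Sema6d rose by 1.46 ± 0.14 and Slit2 fell by 0.75 ± 0.14. Among 29 feedback and immediate early genes of the MAPK pathway 3 rose and 4 fell, none by 2-fold or more.

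Of 13 tested drug efflux, selection and aryl hydrocarbon genes 6 rose and 2 fell, beside 20% higher and 17.4% lower over all tested genes. The multidrug transporter gene Abcb1a had levels of 5.17–6.61 (median 5.67) in YAMC and 6.12–8.80 (median 6.96) in bleo/Neo arrays and rose by 1.34 ± 0.20. Its neighbour Abcb1b rose by 0.58 ± 0.12, with bleo/Neo arrays above all 40 others. Ahr, the aryl hydrocarbon receptor, fell by 1.23 ± 0.18. Of 18 aldo-keto reductase and aldehyde dehydrogenase genes 7 rose and 1 fell, beside the same background. Aldh1l1, a folate enzyme, rose by 1.99 ± 0.14, from 6.83–7.99 (median 7.15) to 8.29–10.19 (median 9.28), and Akr1e1 rose by 1.27 ± 0.15, while the mitochondrial Aldh1l2 fell by 1.67 ± 0.41.

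Gstp1, an abundant glutathione transferase, was among the most precise differences. Its levels were 12.77–13.11 (median 13.01) in YAMC and 11.11–11.59 (median 11.29) in bleo/Neo arrays, a difference of −1.64 ± 0.05 (adjusted p = 1.19e-30), with medians of 13.00, 12.72 and 12.80 in mp53, Ras and mp53/Ras cells. Gstt1 fell by 1.35 ± 0.17 and Gsta3 rose by 1.60 ± 0.14. Over the 42 glutathione and antioxidant genes 11 fell and 9 rose. The stress chaperone gene Hspa1b fell by 3.52 ± 0.21, from 10.19–11.53 (median 10.73) to 6.37–8.64 (median 7.11), below all 40 others, whereas of 16 chaperones 4 rose and 4 fell. Of 11 steroid and retinoid signalling genes 4 fell and 1 rose; 2 fell without YAMC 5, YAMC 7, bleo/Neo 3 or bleo/Neo 9, and 0 rose when any of 8 arrays was left out. Esr1, the oestrogen receptor, fell by 1.69 ± 0.14, from 8.15–8.89 (median 8.56) to 6.12–7.60 (median 6.89).

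Of 20 tested potassium channel genes, 9 rose (45%) and 3 fell (15%), beside 20% and 17.4% over all tested genes. Besides Kcnk1, the beta subunit gene Kcnab2 rose by 1.21 ± 0.10. Kcnk2, another two-pore channel, fell by 1.95 ± 0.19, from 6.90–8.41 (median 7.96) to 5.65–6.10 (median 5.94), below all 40 others, and Kcnab1 fell by 1.09 ± 0.19. Kcnk1 and Kcnk2 thus moved in opposite directions.

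Differences in growth and p53 genes were mostly small. Of 32 DNA replication genes 11 rose (34.4%) and 1 fell (3.1%), none by 2-fold or more (median 0.12). Over all tested genes these shares were 20% and 17.4%. Gins1, a subunit of the replicative helicase, had the largest rise (0.60 ± 0.08). Of 33 mitosis genes 5 rose and 6 fell (3 without YAMC 5), among them Birc5, survivin (0.56 ± 0.10), and Anln, anillin (−0.78 ± 0.15). Of 16 G1 control genes 3 fell and 0 rose (2 without bleo/Neo 4), with Cdkn1c, an imprinted kinase inhibitor, at −0.67 ± 0.10. Of 29 p53 targets 5 rose and 5 fell, and Perp had the largest difference. The p53 target counts were close to the background of 20% and 17.4%.

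Of 23 glycolysis genes 10 fell (43.5%) and 2 rose (8.7%), beside 17.4% and 20% over all tested genes. Eno3, the muscle enolase, fell by 0.97 ± 0.14 and Slc2a3 as given above, while the lactate transporter gene Slc16a3 rose by 1.60 ± 0.18, from 5.78–6.41 (median 6.05) to 6.96–8.34 (median 7.75). Of 22 hypoxia-response genes 5 fell and 2 rose; 4 rose without YAMC 2. Bnip3, a mitophagy protein, fell by 1.50 ± 0.17, from 9.16–10.56 (median 9.49) to 7.74–8.31 (median 8.11), below all 40 others. Of 21 cholesterol synthesis genes 7 rose (33.3%) and none fell, beside 20% and 17.4% over all tested genes. Dhcr7, the last enzyme of that pathway, was at 0.61 ± 0.09. Of 34 unfolded protein and amino acid response genes 5 rose and 5 fell.

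Of 45 tested cytosolic ribosomal protein genes 13 rose (28.9%) and 5 fell (11.1%), with a median of 0.05, beside 20% and 17.4% over all tested genes, and Rps4l was alone among them in changing 2-fold or more. Of 20 translation factors 4 rose (2 without YAMC 3, YAMC 10, bleo/Neo 2, bleo/Neo 5 or bleo/Neo 8) and 3 fell, with Eif3a at −0.84 ± 0.12 and Eef2 at −0.34 ± 0.09. Reference genes were nearly level. Vim (−0.16 ± 0.07) and Tbp (−0.09 ± 0.09) were not called, and Hprt rose by 0.28 ± 0.07. Actb fell by 0.16 ± 0.06 (adjusted p = 0.0477 in limma), a call lost in several alternative fits.

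Genes that lie side by side in the genome were also compared, in runs of 25 neighbouring tested genes. The median difference of 12333 runs ranged from −0.34 to 0.37, with the 1st and 99th percentiles at −0.24 and 0.23. The run from Birc6 to Pkdcc, which holds Ltbp1 and Rasgrp3, had the lowest median (−0.34), with 14 of 25 genes lower and none higher. The lowest and highest runs of the other comparisons with YAMC were −0.28 and 0.26 in mp53, −0.31 and 0.34 in Ras and −0.45 and 0.44 in mp53/Ras cells, so runs of this size were not limited to bleo/Neo. The median of the Birc6 to Pkdcc run in mp53, Ras and mp53/Ras cells relative to YAMC was −0.04, −0.16 and −0.04. The run from Mrps24 to Hus1 had the highest (0.37), with 17 genes higher and 1 lower, and 0.12, 0.05 and 0.12 in the other populations. The run from Vegfc to Apela had a median of 0.33 and holds Gpm6a and Apela, which rose, as well as Hand2, which fell. The comparisons with YAMC share the YAMC arrays.

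Genes with more than 1 bright probe set gave a check on the sizes. Among the 15 largest rises and 15 largest falls 11 had another bright probe set, 12 probe sets in all. These included Gpm6a (4.39), Col1a2 (−5.30) and Rasgrp3 (−2.45), which showed more than 0.4 of the difference of the probe set that stands for the gene. For Csgalnact1, Epha4, H2-Q5, Nid1 and Plagl1 the other probe set showed less than 0.4 of it. The called genes named here were checked in the same way, without Mycn, C1s1, Cnn2, Filip1l, Myl6 and Srf. Of them 54 had another bright probe set, and for 17 at least 1 such probe set showed less than 0.4 of the difference. For 6 of these 17 at least 1 was of opposite sign (Cgn, Cxcl12, H2-Q5, Kdm5c, Kdm6a and Notch2). Cxcl12 (−2.53), Kdm5c (0.38 and 0.45) and Kdm6a (0.86) also had other bright probe sets with more than 0.4 of the difference. Mycn, left out of these counts, also had other bright probe sets under 0.4 of its difference (0.46 and 0.10 beside 5.15). The others were Cxcl15, Eif3a, Foxf1, H2-Ab1, Hand2, Jag1 and Lgals2, besides those given above. Of the 357 genes at least 2-fold apart 116 had another bright probe set, and for 40 of these at least 1 such probe set showed less than 0.4 of the difference.

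**Figure D5:**
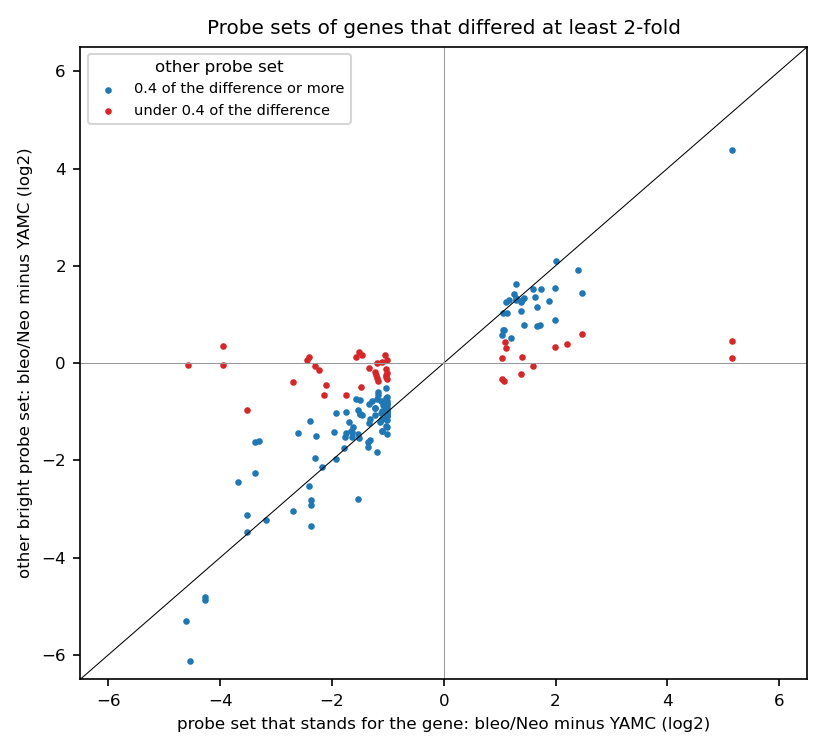
Log2 difference, bleo/Neo minus YAMC, of the probe set that stands for a gene (horizontal) and of each other bright probe set of that gene (vertical), for the 116 genes at least 2-fold apart that have 1. Of 160 other probe sets, 43 (red) show less than 0.4 of the difference, and the 2 at the far right near 0 are those of Mycn.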

How the data were processed

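Polysomal RNA of 5 cell populations was hybridised to one-colour arrays, 10 per population. The authors deposited a table of 45101 probe sets as linear intensity values, made with RMA per the submitters' processing notes; background correction and normalization were therefore done before deposit, the version is not given in the sources used here, and array medians lie between 86.4 and 86.7. RMA compresses low values, so falls to the floor (3.04 on the log2 scale) are understated.

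Log2 of the values was taken. Of the probe sets, 34945 carry 1 gene symbol in the platform annotation (34741 matched by gene number to RefSeq), 932 carry several, 9160 none, and 64 are blank controls. The probe set with the highest mean over 50 arrays stands for each of 18193 genes. Genes above the table median (6.44) on at least 10 arrays were tested, 12883 in all.

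One model with a coefficient per population was fitted to the 50 arrays in limma 3.58.1 (R 4.3.3; lmFit, eBayes with an intensity trend), and p-values were adjusted by Benjamini-Hochberg over the tested genes. Genes were called at 0.05, and a 2-fold count is given beside. The script was tested on simulated data. The replicate number was not used as a block.

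The members and the gene lists were chosen with earlier results of these data known. Named genes are the 15 largest non-overlapping rises and falls with a gene name, and the reference genes. They also include up to 5 of the largest called members of each list and the largest called against its direction. For lists with at most 7 genes on the array, all tested members are included. The text gives a part of the named genes. Mycn, C1s1, Cnn2, Filip1l, Myl6 and Srf were named after their values were seen. Alternatives were other filters, scalings, probe set rules, array weights, the 20 arrays alone, a replicate block and leaving out each array.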

Additional observations from a re-analysis of the deposited data

Results flagged for a closer look

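In the 176 genes named in the text, the highest or lowest array of a population was set against its 9 others. In 64 of 352 such groups (18.2%) its gap to the nearest other array exceeded the 95% limit of Dixon's test. Chance gives about 1 in 20 groups. Values in brackets are that array's log2 level.

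The array labelled YAMC 2 accounted for 30 of the 64, and in 20 of them it lay toward the bleo/Neo arrays. It was the highest YAMC array for Dhcr7 (10.90), Eno3 (11.10), H2-Ab1 (9.36), Igf2 (9.02), Krt18 (11.84), Mycn (13.82), Pkp2 (11.86) and Zeb1 (10.44). It was the lowest for C1s1 (5.72), Cdh11 (8.25), Csgalnact1 (7.86), Fgfr1 (6.56), Gbp3 (10.79), Hand2 (8.10), Hoxb6 (8.95), Hoxc10 (7.87), Igfbp7 (11.44), Itgb4 (7.09), Ivl (6.02), Krt19 (8.49), Krt7 (7.04), Ltbp2 (4.66), Mmp2 (11.38), Mmp23 (7.03), Perp (9.21), Plac8 (8.11), Srf (9.26), Tbx20 (7.88), Wnt11 (8.44) and Zic1 (7.05).

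The array bleo/Neo 1 accounted for 14, all toward the YAMC arrays. It was the highest bleo/Neo array for Cgn (8.08), Csgalnact1 (5.55), Cxcl14 (7.43), Fgfr1 (7.20), H2-Q5 (6.21), Hoxa11 (7.21), Kdm5d (4.35), Krt4 (6.90), Mmp23 (7.26) and Zic1 (4.10). It was the lowest for Esam (8.58), Hoxc4 (7.17), Perp (11.73) and Wnt10a (6.38).

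The array bleo/Neo 3 was the highest for Abcb1a (8.80), Cd68 (11.10), Itgb2 (8.64), Kcnab2 (9.63) and Sbsn (13.19) and the lowest for Eno3 (8.18) and Kcnk1 (10.28).

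Among the other arrays, YAMC 3 was highest for Abcb1a (6.61), YAMC 4 was lowest for Chrd (6.41), Gata3 (7.56) and P3h3 (7.06), YAMC 5 was highest for Bgn (13.40) and Vcl (12.42), YAMC 6 was highest for Bnip3 (10.56), YAMC 7 was highest for Esam (7.07), YAMC 8 was highest for Gstt1 (8.92), YAMC 10 was highest for Kdm5c (9.28), bleo/Neo 4 was lowest for Epha7 (8.23), bleo/Neo 7 was highest for Cxcl15 (8.57), and bleo/Neo 10 was lowest for Mycn (13.19).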

How the results depend on the processing

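The direction of each named difference held in all alternatives. With 1 array left out in turn, the number of called genes ran from 4487 to 4985, those higher from 2394 to 2659 and those lower from 2079 to 2326. Genes at least 2-fold apart then ran from 346 to 366, with 132 to 141 higher and 211 to 230 lower. Fitting the 20 arrays alone gave 4066 called genes, array weights 5648, no filter 6756, the mean of bright probe sets 4605, a filter on the mean of the 20 arrays 4479, an offset of 32 before log2 4804, centring 4808 and no intensity trend 4822. Genes at least 2-fold apart numbered 356, 365, 406, 280, 302 and 282 in the first 6 of these. With the replicate number as a block, 5388 genes were called and 358 were at least 2-fold apart. Same-numbered bleo/Neo and YAMC arrays correlated in their deviations with r from −0.37 to 0.75, over 0.1 in 7 of 10 pairs, and 6 of 10 YAMC arrays correlated best with their own number. This hints at pairing for some numbers, but not every pair passed 0.1, so the block was kept as an alternative.

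Over the named genes, 3485 values with an array left out and 1542 in other settings kept their call, 28 and 8 lost it and 7 and 1 gained it. The calls that were lost were those of Actb (adjusted p = 0.0664 with the 20 arrays alone), Filip1l and Krt4, and Vim was called in 8 settings. With an array left out, the other counts of list members that moved by more than 1.5 times did so by 1 gene. Setting aside YAMC 2, mp53 8, mp53 10 and Ras 10, chosen after seeing the data, gave 41 genes with YAMC arrays above and 29 with YAMC arrays below all others, 34 and 37 for mp53, and 8 and 15 for Ras. For bleo/Neo these were 104 and 131 and for mp53/Ras 43 and 211. The cause was not tested. The median difference of all tested genes was 0.01 under each scaling.

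The number of arrays and the signal over background limit these values: low genes have compressed differences, and the Y-linked, Zic1 and Rps4l falls end near the floor. The control population was made a single time, so its differences hold for that population.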
